A study of Rattus norvegicus with 100 samples.

Results

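The genes for 6 cytosolic fatty acid binding proteins and for the membrane fatty acid translocase CD36 were followed in primary rat hepatocytes exposed to GW7647, a synthetic agonist of the nuclear receptor PPARα. The members were listed by name (Fabp1, Fabp2, Fabp3, Fabp4, Fabp5, Fabp7 and Cd36). Each was read from the probe set with that single symbol and the highest mean over all arrays, and each had exactly 1 such probe set. They are 7 of 13439 genes with a probe set of 1 symbol, and all 7 were among the 8843 genes with a log2 intensity above 5 in at least 3 arrays, which were tested. Total RNA of 100 cultures was measured on 100 Affymetrix arrays, and the values are the deposited log2 intensities. The labels name 4 donor animals, Rs627, Rs628, Rs631 and Rs632, whose strain, sex and age are not given in the sources used here. Their hepatocytes lay on collagen IV under Geltrex in William E medium with a maintenance cocktail. Exposure was to 0, 0.001, 0.01, 0.1, 1 or 10 µM for 2, 6, 12, 24 or 72 h, which makes 30 groups of 2 to 4 arrays with at most 1 array per rat. Whether the 0 µM cultures received the solvent is not stated in the labels. Isolated hepatocytes in culture lack blood flow and the other cells of the liver, which limits them as a model of the organ.

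Fatty acid binding proteins are small cytosolic proteins that hold a fatty acid in a barrel-shaped pocket and carry it between membranes, enzymes and the nucleus. Each form was named after the tissue where it was found: FABP1 is the liver form, FABP2 the intestinal, FABP3 the heart and muscle, FABP4 the fat-cell, FABP5 the epidermal and FABP7 the brain form. CD36 sits in the plasma membrane and takes up long-chain fatty acids and lipoproteins. PPARα is activated by fatty acids and pairs with the receptor RXR. The pair binds direct repeats of a hexamer close to AGGTCA with 1 base between the copies, and Fabp1 is among its textbook targets in rodent liver.

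Some properties of the arrays touch the results and are given first. The rats pair the cultures, since all concentrations and times of a rat come from 1 animal. In deviations from the group means over all genes tested, the median correlation was 0.620 between arrays of the same rat and -0.23 between rats. Deviations cancel within a group, so the negative value between rats arises partly from the subtraction. The 2 arrays at 0 µM and 12 h labelled Rs627 and Rs628 went against their labels. The first correlated at 0.763 with the arrays of Rs628 and at -0.017 with its own, the second at 0.513 with Rs627 and at -0.22 with its own. Leaving out both arrays took away or added no call among the members in the fit without the rat, and their effect on the fit with the rat as a block is given beside the 12 h results. The 75th percentile of an array ran from 6.42 to 7.27 log2 units. It was low on 5 arrays, and 2 of these were among the 4 arrays at 1 µM and 24 h. All 5 carry a letter and number code that the labels give more than once. That code is read here as a plate position, which the sample titles do not say. Markers of hepatocytes were high throughout: Alb had group means of 13.67 or more and Hnf4a from 10.10 to 10.84. At 72 h the summed level of the hepatocyte list, as log2, ran from 15.17 to 15.31 at 0 µM and from 14.94 to 15.11 at 1 µM without overlap, and its part in the changes was not tested.

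For the 3 members that rose, the 250 bases before the annotated start are shown, because PPARα acts through sites in such regions. Of the 7 members, 5 were matched by symbol in the RefSeq promoter table of build GRCr8, and Fabp4 and Fabp5 have no entry. Fabp1, Fabp3 and Cd36 are on the plus strand, at chr4:104749090-104749339 for Fabp1, chr5:147935875-147936124 for Fabp3 and chr4:18246332-18246581 for Cd36. The search covered both strands for 2 copies of AGGTCA with 1 base of any kind between them, allowing at most 3 of the 12 lettered bases to differ. Capitals mark the match with the fewest different bases.
Fabp1: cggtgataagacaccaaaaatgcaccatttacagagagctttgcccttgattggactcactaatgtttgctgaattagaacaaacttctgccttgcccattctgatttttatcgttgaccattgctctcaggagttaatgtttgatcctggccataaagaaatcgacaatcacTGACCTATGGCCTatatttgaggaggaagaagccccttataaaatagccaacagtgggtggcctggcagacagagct
Fabp3: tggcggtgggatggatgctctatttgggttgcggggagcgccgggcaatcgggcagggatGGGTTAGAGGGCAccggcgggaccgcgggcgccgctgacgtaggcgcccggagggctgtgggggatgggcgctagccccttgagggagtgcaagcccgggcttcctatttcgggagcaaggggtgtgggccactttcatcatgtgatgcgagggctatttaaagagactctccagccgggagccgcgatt
Cd36: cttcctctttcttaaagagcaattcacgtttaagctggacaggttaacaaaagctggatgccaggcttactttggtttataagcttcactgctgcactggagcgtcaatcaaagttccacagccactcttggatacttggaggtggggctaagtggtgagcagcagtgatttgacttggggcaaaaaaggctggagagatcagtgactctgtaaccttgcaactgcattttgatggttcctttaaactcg
In the Fabp1 promoter the marked stretch, TGACCTATGGCCT, lies 77 to 65 bases before the start on the opposite strand and differs from the repeat at 1 base. Among 33469 promoters of the same length, 0.368% hold a match with at most 1 different base. Fabp1 has 2 further matches with 3 different bases. The single Fabp3 match also differs at 3 bases, and 21.4% of promoters hold one that close. The Cd36 window had no match within 3 bases. Of the members that did not pass the test, Fabp2 has a match with 2 different bases 106 to 94 bases before its start, which 3.15% of promoters reach or better, and Fabp7 had none. Such matches are letters in a window and were not tested as sites.

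Fabp1, Fabp3 and Cd36 rose with GW7647, Fabp5 fell late, and Fabp2, Fabp4 and Fabp7 did not pass the test in any comparison. A change was called at an adjusted p under 0.05 in limma, adjusted by Benjamini-Hochberg over all genes tested in that comparison. At 0.001 µM, 0 of 7 members were called at each of the 5 times and averaged over them, as were 0% of all genes in each of those 6 comparisons, and 0 members reached an unadjusted p under 0.05. At 0.01 µM the first call came late. No member was called at 2 h (background 0.0113% of genes), 6 h (0%), 12 h (0.0339%) or 24 h (0.136%). At an unadjusted p under 0.05 the counts there were 0, 0, 1 and 1. At 72 h 1 of 7 was called (0.418%), which was Fabp1, and averaged over the times it was again 1 of 7 (0.69%).

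At 0.1 µM, 0 of 7 members were called at 2 h (background 0.192%, and 0 members at an unadjusted p under 0.05). There was 1 call at 6 h (0.916%) and 1 at 12 h (1.55%), then 2 after 24 h (4.32%), 2 after 72 h (8.82%) and 3 averaged over the times (14.3%). At 1 µM it was 0 at 2 h (0.373%, again 0 unadjusted), 1 at 6 h (2.04%), 2 at 12 h (5.41%), 4 at 24 h (29.6%), 4 at 72 h (26.8%) and 4 averaged over the times (35.4%). At 10 µM it was 0 at 2 h (1.02%, with 1 member at an unadjusted p under 0.05), 1 at 6 h (4.3%), 2 at 12 h (7.95%), 2 at 24 h (17.1%), 3 averaged over the times (39.4%) and 4 at 72 h (28%). Averaged over the times at 10 µM the members' share was close to the background. With the rat as a block more genes were called in all. At 0.1 µM the count of members was then 3 at 12 h (background 3.34%) and 4 at 72 h (25.3%), and at 6 h it was 3 for 1 µM (4.7%) and 3 for 10 µM (14.5%). Without the pair of 0 µM arrays at 12 h that went against their labels, a setting chosen after seeing the data that leaves 1 control array there, the block gave 2 members for 0.1 µM at 12 h (1.58%).

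**Figure D1:**
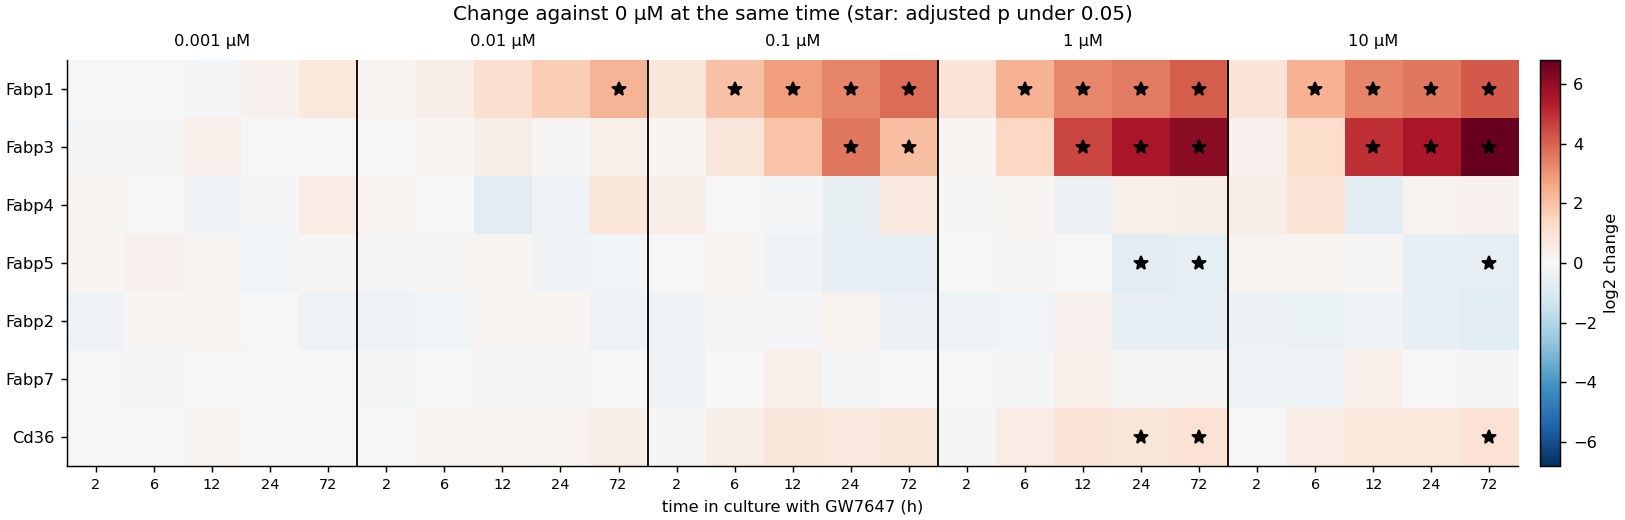
Log2 change against 0 µM at the same time for the 7 genes (rows) at 5 concentrations and 5 times (columns). Red is higher and blue lower than 0 µM, and a star marks an adjusted p under 0.05. Fabp1 has a star at 0.01 µM only at 72 h and from 6 h on at 0.1 µM and above, while Fabp3 reaches 6.81 at 10 µM and 72 h.

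Fabp1 encodes the liver form, the main fatty acid carrier of the hepatocyte cytosol (gene ID 24360, chromosome 4). At 0 µM and 72 h its log2 intensity was 9.69 in Rs627, 8.15 in Rs628, 8.88 in Rs631 and 8.39 in Rs632. At 1 µM it was 12.96, 12.96, 12.91 and 12.84 in the same order. The groups did not overlap, and the spread among rats that was seen at 0 µM (SD 0.681, n = 4) was 0.059 at 1 µM. The difference was 4.14 on the log2 scale (SE 0.39, adjusted p = 3.57e-14, limma), a 17.6-fold rise seen in 4 of 4 rats. A change in total RNA of a bulk culture does not tell a change in the number of cells of a type from a change in RNA per cell.

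The rise of Fabp1 was already present at 6 h, where values at 1 µM were 11.87, 11.55, 11.16 and 11.40 against 9.56, 9.48, 8.85 and 8.67 at 0 µM (Rs627, Rs628, Rs631 and Rs632). It came to 2.35 at 6 h (SE 0.39, adjusted p = 1.2e-05), 3.27 at 12 h (SE 0.42, adjusted p = 7.64e-09) and 3.54 at 24 h (SE 0.42, adjusted p = 3.99e-10; all limma). At 2 h the arrays at 1 µM read 10.23 in Rs628, 9.79 in Rs631 and 9.85 in Rs632, against 9.89 in Rs627, 8.71 in Rs631 and 8.67 in Rs632 at 0 µM. Both rats with arrays at each concentration were higher, but the groups overlapped and the change of 0.87 was not called (adjusted p = 1 in limma). Without Rs627, which was high at 0 µM and had no array at 1 µM, it was 1.27 with an adjusted p of 0.0107.

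Fabp1 was the only member called at 0.01 µM against 0 µM in limma as fitted, at 72 h and averaged over the times. At 0.01 µM and 72 h its values were 11.55, 10.98, 11.04 and 10.80 in Rs627, Rs628, Rs631 and Rs632, each above every 0 µM value. The change was 2.31 (SE 0.39, adjusted p = 0.000109, limma), a 4.97-fold rise. At 24 h it was 1.66 at 0.01 µM with overlapping groups, uncalled as fitted (adjusted p = 0.103, limma) and called with rats as a block (1.69, adjusted p = 0.000102). Averaged over the times the change at 0.01 µM was 1.14 (adjusted p = 6.43e-05), and without Rs631 it was 1.02 with an adjusted p of 0.262.

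At 0.1 µM Fabp1 stood close to its highest levels. The change was 2.00 at 6 h and 2.85 at 12 h, and it reached 3.33 after 24 h and 3.78 after 72 h, with adjusted p-values from 8.23e-11 to 0.002 in limma. On the log2 scale these are 83.9% to 93.3% of the change at 10 µM at the same times. The calls at 24 and 72 h held without any 1 rat. At 6 h the call was lost without Rs631 (adjusted p = 0.248) or Rs632 (0.0745), and at 12 h without Rs631 (0.193). The levels at 1 and 10 µM were close: group means at 10 µM were 12.66 at 12 h, 12.96 at 24 h and 12.93 at 72 h, against 12.61, 12.93 and 12.92 at 1 µM. Only 18 of the genes tested had a group mean above the highest of Fabp1, and whether the array limits its reading at the top was not tested.

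In the order of its 30 group means Fabp1 ran from 8.78 at 72 h without agent to 12.96 at 24 h and 10 µM. Of the 29 steps between neighbours in that order, 25 were smaller than the larger SD of the 2 groups. The widest gap was 0.66, between 12 h at 0.1 µM (12.19) and 6 h at 10 µM (11.53). It separates the groups at 0.1 µM or more from 12 h on from every other group.

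**Figure D2:**
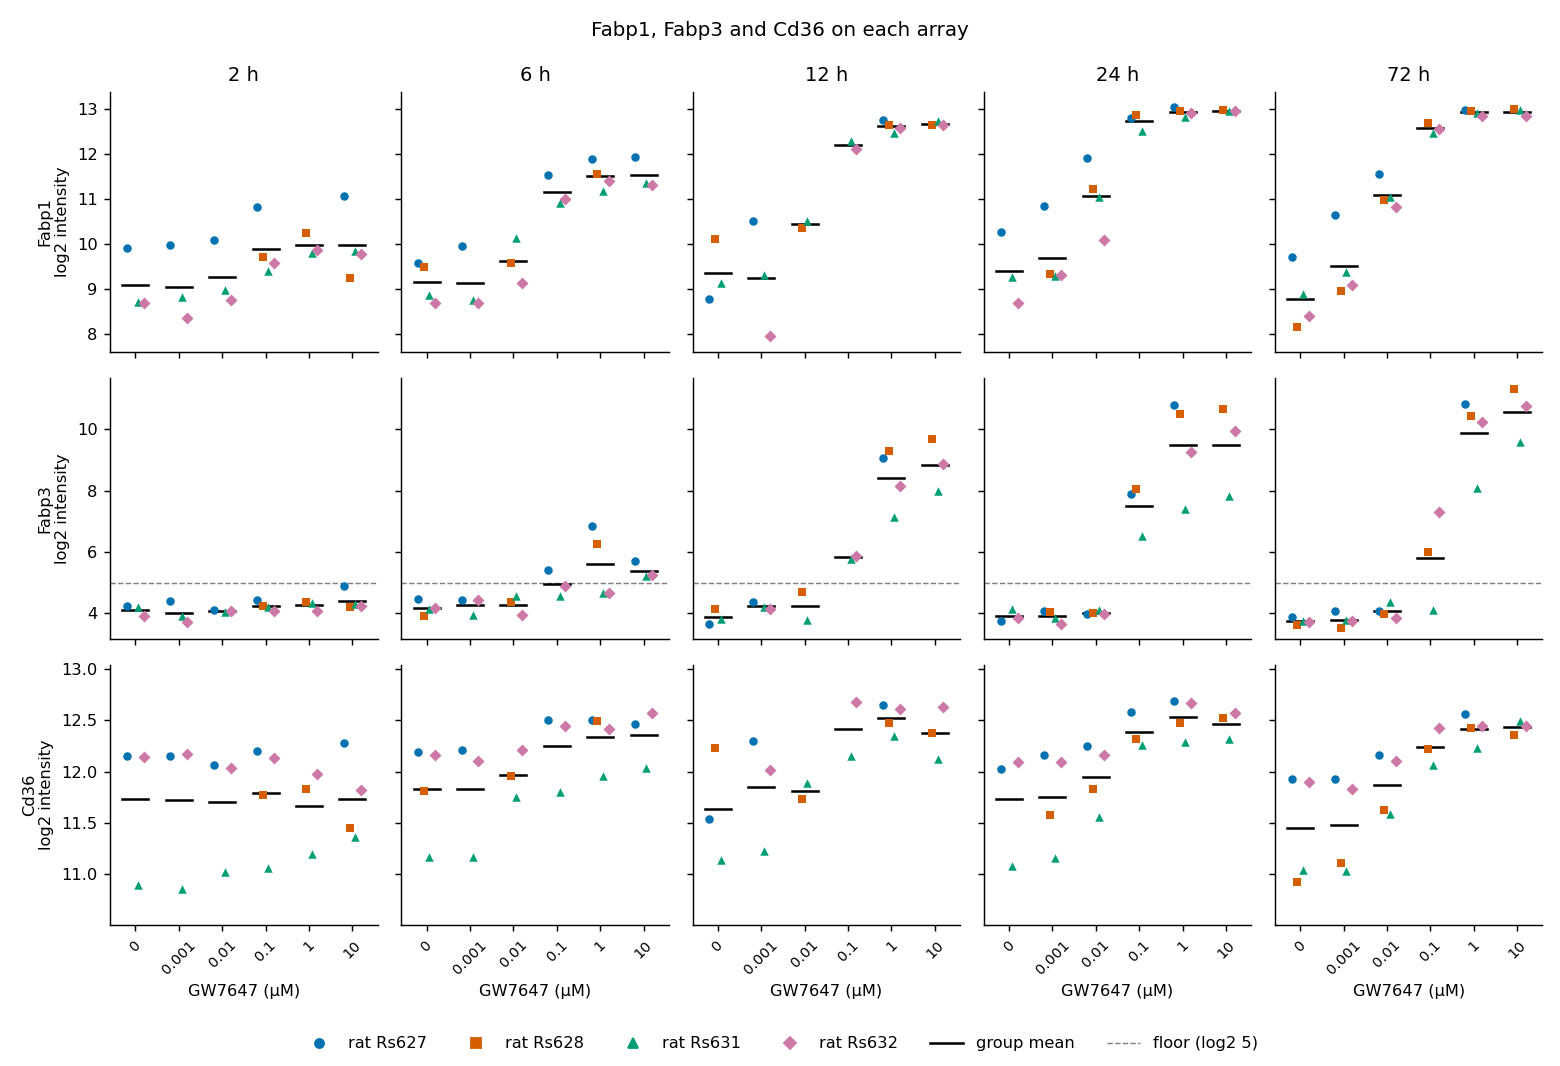
Log2 intensity of Fabp1, Fabp3 and Cd36 (rows) at 5 times (columns) against GW7647 concentration in µM. Points are arrays coloured by the labelled rat, black bars are group means and the dashed line is the floor of 5. Fabp1 climbs from 0.01 µM, Fabp3 leaves the floor at 0.1 µM and above, and Cd36 at 0 µM is lower in Rs631 (mean 11.06) than in Rs632 (mean 12.07).

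Fabp3 encodes the heart and muscle form, which supplies fatty acids to oxidation in muscle (gene ID 79131, chromosome 5). It was under a log2 value of 5, taken as the floor of measurement, on every array at 0, 0.001 and 0.01 µM and on every array at 2 h. In all, 34 of 100 arrays exceeded the floor. At 72 h and 0 µM it read 3.88 in Rs627, 3.62 in Rs628, 3.74 in Rs631 and 3.72 in Rs632. At 1 µM it read 10.81, 10.44, 8.08 and 10.22 in the same order. No array at 0 µM came near any at 1 µM, and Rs631 was the lowest of the 4 rats. The log2 difference was 6.15 (SE 0.49, adjusted p = 3.17e-17, limma), seen in 4 of 4 rats. With values under 5 set to 5 it is at least 29.6-fold higher, a bound because the 0 µM group lies under the floor.

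At 10 µM and 72 h the values were 11.31 in Rs628, 9.59 in Rs631 and 10.75 in Rs632. They gave a log2 change of 6.81 (SE 0.53, adjusted p = 9.72e-18, limma), at least 46.8-fold with the floor. At 24 h the arrays at 1 µM read 10.81, 10.51, 7.40 and 9.25 in Rs627, Rs628, Rs631 and Rs632, against 3.75, 4.15 and 3.84 in Rs627, Rs631 and Rs632 at 0 µM. Again the groups stood far apart and Rs631 rose least. The change was 5.58 (SE 0.53, adjusted p = 1.08e-13, limma), at least 22.5-fold with the floor. It was 6.74 without the arrays of low signal and 6.39 without Rs631, and at 72 h it was 6.75 without Rs631. At 10 µM and 24 h it was 5.57 (adjusted p = 1.6e-12), or 4.97 without Rs628 and 6.52 without Rs631.

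At 6 h, where Fabp1 was called, Fabp3 was not. At 1 µM it was above the floor in Rs627 (6.84) and Rs628 (6.27) and under it in Rs631 (4.66) and Rs632 (4.65). All 4 arrays were higher than the 0 µM arrays, which ran from 3.91 to 4.45. The change of 1.43 was uncalled (adjusted p = 0.169, limma) and called when the rat was a block (adjusted p = 0.029). With values under 5 set to 5 it was 0.78 (adjusted p = 0.707). At 10 µM and 6 h it was 1.22 (adjusted p = 0.168) and with the block 1.32 (0.0407), and 0.39 (0.641) with values under 5 set to 5. By 12 h values at 1 µM were 9.06, 9.30, 7.13 and 8.14 in Rs627, Rs628, Rs631 and Rs632, and none at 0 µM exceeded 4.12. The change there was 4.54 at 1 µM (SE 0.53, adjusted p = 3.52e-10, at least 10.6-fold with the floor) and 4.98 at 10 µM (SE 0.57, adjusted p = 1.51e-10).

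Rats were far apart in Fabp3 at 0.1 µM, with an SD of 0.850 at 24 h and 1.61 at 72 h (n = 3 each). At 24 h it read 7.90 in Rs627, 8.04 in Rs628 and 6.51 in Rs631, all above the 0 µM arrays, a change of 3.57 (SE 0.57, adjusted p = 3.48e-06, limma) that was 4.18 without Rs631. At 72 h it read 5.99 in Rs628, 7.31 in Rs632 and 4.11, under the floor, in Rs631. The groups still did not overlap, and the change of 2.06 was called (adjusted p = 0.0068). It rests on single rats: it was 1.93 without Rs628 (adjusted p = 0.0621), 1.30 without Rs632 (0.403), 2.91 without Rs631 and 1.10 with values under 5 set to 5 (0.157). At 12 h the 2 arrays read 5.78 and 5.86, and the change of 1.96 was uncalled (adjusted p = 0.131) and called with rats as a block (2.29, adjusted p = 0.00481). That call was lost when the block was fitted without the 0 µM arrays that went against their labels (1.81, adjusted p = 0.484), and with values under 5 set to 5 the change was 0.82 (0.806).

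The group means of Fabp3 spanned 6.81 log2 units, from 3.74 at 72 h without agent to 10.55 at 72 h and 10 µM. Of 29 neighbouring steps in their order 26 were smaller than the larger SD of the 2 groups. The widest, 1.66, lay between 24 h at 0.1 µM (7.48) and 12 h at 0.1 µM (5.82). A group mean above the floor was found in 11 of 30 groups, all of them at 6 h or later and at 0.1 µM or more.

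Cd36 encodes the membrane receptor for long-chain fatty acids (gene ID 29184, chromosome 4). It was high on all arrays, from 10.85 to 12.69, and its rise was small beside those of Fabp1 and Fabp3. There were 81 genes with a group mean above the highest of Cd36. Whether the array limits its reading at the top, and so the size of its rise, was not tested. At 72 h it read 11.93, 10.92, 11.04 and 11.90 at 0 µM and 12.56, 12.43, 12.23 and 12.44 at 1 µM in Rs627, Rs628, Rs631 and Rs632. The groups did not overlap, and the 2 rats that were low at 0 µM came up to the others. The change was 0.97 (SE 0.29, adjusted p = 0.00763, limma), 1.96-fold and in 4 of 4 rats. It was 0.79 with an adjusted p of 0.126 without Rs628.

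Averaged over the times Cd36 rose by 0.54 at 0.1 µM (SE 0.15, adjusted p = 0.00642), 0.62 at 1 µM (SE 0.14, adjusted p = 0.000194) and 0.60 at 10 µM (SE 0.14, adjusted p = 0.000493; all limma). The first of these was not called without Rs632 (adjusted p = 0.0789). At single times it was called at 24 h and 1 µM (0.80, adjusted p = 0.0449), and that call was lost without any 1 of the 4 rats (0.55 to 0.93, adjusted p from 0.0671 to 0.16) and without the arrays of low signal (0.85, adjusted p = 0.12). It was called as well at 72 h and 10 µM (0.99, adjusted p = 0.0115), but not without Rs628 (0.142) or Rs632 (0.0511). Mean levels at 0 µM ran from 11.06 in Rs631 to 12.07 in Rs632, and with the rat as a block further changes passed. These were 0.51 at 6 h and 0.81 at 12 h for 1 µM, 0.81 at 12 h, 0.76 at 24 h and 0.89 at 72 h for 0.1 µM, and 0.49 at 6 h, 0.77 at 12 h and 0.88 at 24 h for 10 µM, with adjusted p-values from 3.29e-05 to 0.0377. Those at 12 h were called with the block also without the 0 µM arrays that went against their labels, at 0.95 for 0.1 µM (adjusted p = 0.0183), 0.96 for 1 µM (0.00329) and 0.92 for 10 µM (0.00513).

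Fabp5 encodes the epidermal form, found in many cell types (gene ID 140868, chromosome 2). It was the member that fell. At 24 h it read 10.45, 10.82 and 10.21 in Rs627, Rs631 and Rs632 at 0 µM, and 10.00, 9.37, 9.85 and 9.72 in Rs627, Rs628, Rs631 and Rs632 at 1 µM. The groups did not overlap and the 3 rats with both arrays were lower. The change in Fabp5 was -0.76 (SE 0.21, adjusted p = 0.00382, limma), beside a median of -0.23 over all genes tested. Quantile normalization moved that median to -0.08 and left the Fabp5 change at -0.73 (adjusted p = 0.00427). Without Rs631 it was -0.63 with an adjusted p of 0.0822.

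At 72 h Fabp5 read 10.50, 10.83, 10.63 and 10.34 at 0 µM and 10.10, 9.47, 9.98 and 10.38 at 1 µM in Rs627, Rs628, Rs631 and Rs632. Rs632 was not lower, so the groups overlapped, and the largest drop was that of Rs628. The change of -0.59 was called (SE 0.19, adjusted p = 0.0137, limma), but not without Rs628 (-0.33, adjusted p = 0.16), without Rs631 (-0.57, 0.0616), or without the arrays at repeated plate positions (-0.42, 0.0841). At 10 µM and 72 h it was -0.59 (adjusted p = 0.0232), and not called without Rs627 (0.0502) or Rs631 (0.272). Averaged over the times it was -0.26 at 1 µM (adjusted p = 0.0166), lost without Rs628 (-0.16, 0.1) or Rs631 (-0.21, 0.171). At 0.1 µM it was called with the rat as a block, at 72 h (-0.53, adjusted p = 0.0304) and averaged (-0.25, 0.0263), and uncalled as fitted (0.077 and 0.0628). Without Rs628 and without the block these changes were -0.07 (0.869) and -0.17 (0.161). The 3′ minus 5′ signal of control probe sets rises with RNA breakdown. For actin it was 1.97 ± 0.147 log2 units at 1 µM and 1.66 ± 0.185 at 0 µM at 72 h (SD, n = 4 each). At 24 h the actin means were 1.83 at 1 µM and 1.93 at 0 µM. For GAPDH the means at 72 h were 0.337 at 1 µM and 0.348 at 0 µM. The part of RNA breakdown in the changes was not tested.

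Fabp7 encodes the brain form (gene ID 80841, chromosome 20). It was well above the floor on all 100 arrays and its group means ran only from 8.39 to 8.93. Averaged over the times its change was 0.07 at 1 µM, with a 95% interval from -0.22 to 0.36, and -0.08 at 10 µM, from -0.38 to 0.22. Without agent, Rs632 stood above the other rats. At 0 µM Rs632 read 9.11 to 9.25 on its 4 arrays, and no array of the other rats at 0 µM exceeded 8.81.

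Fabp4 encodes the fat-cell form, a classic target of PPARγ in adipocytes (gene ID 79451, chromosome 2). It exceeded the floor on 16 of 100 arrays, and the highest array read 6.41. The change at 1 µM and 72 h was 0.42, with arrays from 3.36 to 5.20 against 3.48 to 4.54 at 0 µM, and the groups overlapped (adjusted p = 0.494, limma). Without the arrays at repeated plate positions it was 0.77 (adjusted p = 0.0316). Fabp4 and Fabp5 lie near each other on chromosome 2, with the protein-coding genes Fabp9 and Pmp2 between them in the RefSeq annotation. Fabp2, the intestinal form (gene ID 25598, chromosome 2), exceeded the floor on 17 arrays and read at most 6.07. Its change at 10 µM averaged over the times was -0.48 (adjusted p = 0.0799, limma), and with rats as a block -0.35 (adjusted p = 0.0293). Most of its values lie under the floor, where an intensity difference has no firm meaning.

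**Figure D3:**
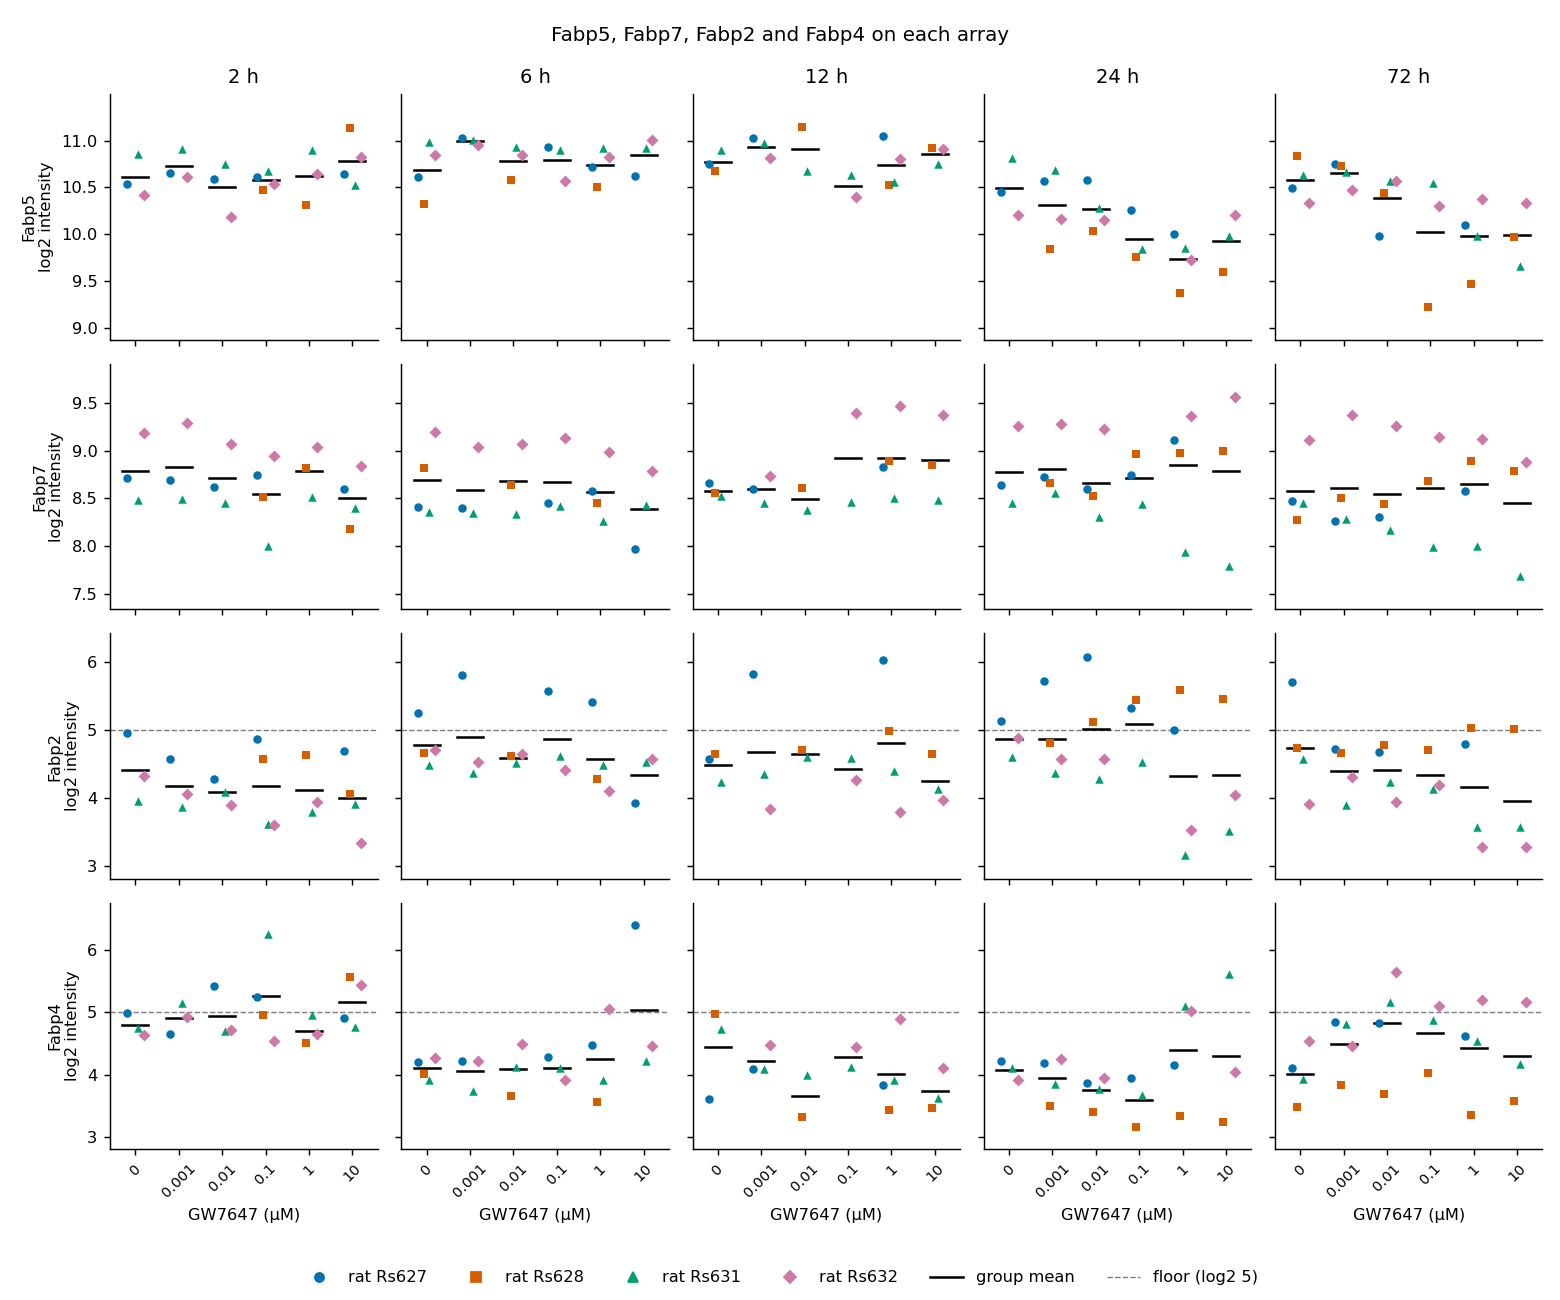
Log2 intensity of Fabp5, Fabp7, Fabp2 and Fabp4 (rows) at 5 times (columns) against GW7647 concentration in µM, with arrays coloured by the labelled rat, group means as black bars and the floor of 5 dashed. Fabp5 is lower at 24 and 72 h at the higher concentrations. Fabp7 stays between group means of 8.39 and 8.93 with Rs632 on top at 0 µM, and Fabp2 and Fabp4 stay near the floor.

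The forms were then compared in their change at 1 µM, by a two-sided permutation test of the difference between the log2 changes of 2 genes, with concentration labels permuted within each time over 19 arrays at 1 µM and 17 at 0 µM. Averaged over the 5 times the liver form rose by 2.83, the heart form by 3.57, and the value for the fat-cell form was 0.07. The change of Fabp4 minus that of Fabp1 was -2.76, and the same difference from Fabp1 was -3.10 for Fabp5, -3.09 for Fabp2 and -2.21 for Cd36. For Fabp4 minus Fabp3 it was -3.49. For these 5 pairs the permutation p was 1e-05, the smallest that 100000 resamples give, and 1.2e-05 adjusted over the 6 pairs compared. The permuted arrays come from 4 rats, and the test counts repeated times of a rat as separate. Its p-values therefore do not measure the spread between animals. Fabp1 exceeded Fabp4, Fabp5, Fabp2 and Cd36 in all 16 rat and time combinations with both arrays, and Fabp3 exceeded Fabp4 in 14 of 16. These combinations include Rs627 and Rs628 at 12 h, whose 0 µM arrays went against their labels. Fabp2 and Fabp4 lie mostly under the floor, so the differences that involve them largely restate the rise of Fabp1 or Fabp3.

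Heart and liver forms were not clearly apart in the size of their rise. The change of Fabp3 exceeded that of Fabp1 by 0.74 (permutation adjusted p = 0.0495), in 10 of 16 rat and time combinations. With the rats paired it was 0.72 with an adjusted p of 0.144, and it was 0.31 (0.446) without Rs627 and 0.50 (0.232) without Rs628. It was called without Rs631 (1.19, 0.00934) and without Rs632 (0.95, 0.049). With values under 5 set to 5 the sign turned, to -0.12 (0.707). The concentrations at which each moved are set out next.

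Step by step, averaged over the times, Fabp1 rose by 0.97 from 0.001 to 0.01 µM (adjusted p = 0.00141, limma; 1 of 7 members called, background 0.645%), and by 1.41 from 0.01 to 0.1 µM (3.03e-07), while its step from 0.1 to 1 µM was 0.28 (0.898). The steps of Fabp3 were 0.10 (1), 1.52 (1.32e-05) and 1.87 (2.07e-07) over the same 3 intervals, and the middle one was 0.91 (0.00972) with values under 5 set to 5. Group means of Fabp1 at 0.1 µM were already 12.19 to 12.72 from 12 h on, near its highest of 12.96. Whether the array limits its reading there, and so its step from 0.1 to 1 µM, was not tested. As measured, the called steps of the liver form lay at or below 0.1 µM and those of the heart form between 0.01 and 1 µM. From 0.01 to 0.1 µM these were the 2 of 7 called (background 4.08%), from 0.1 to 1 µM Fabp3 alone was called (1 of 7, 1.06%), and from 1 to 10 µM 0 of 7 were called (0%, and 0 at an unadjusted p under 0.05). The lowest Fabp1 step was not called without Rs628 (0.92, adjusted p = 0.0796), Rs631 (0.84, 0.743) or Rs632 (0.86, 0.145). The difference between the 2 genes in each step was tested after their values had been seen, by the permutation test adjusted over the 4 steps. For the lowest step no difference is given, since Fabp3 was under the floor on all arrays at both concentrations. From 0.1 to 1 µM the difference Fabp3 minus Fabp1 was 1.59 (adjusted p = 0.00148), 1.52 with values under 5 set to 5 (0.00164) and 1.30 with rats paired within a time (0.0169), where 9 of 14 pairs had its sign. From 1 to 10 µM it was 0.18 (adjusted p = 0.681), and with rats paired 0.43 (0.0169, 13 of 15 pairs). From 0.01 to 0.1 µM it was 0.12 (0.681), and with values under 5 set to 5 the sign turned, to -0.50 (0.076).

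**Figure D4:**
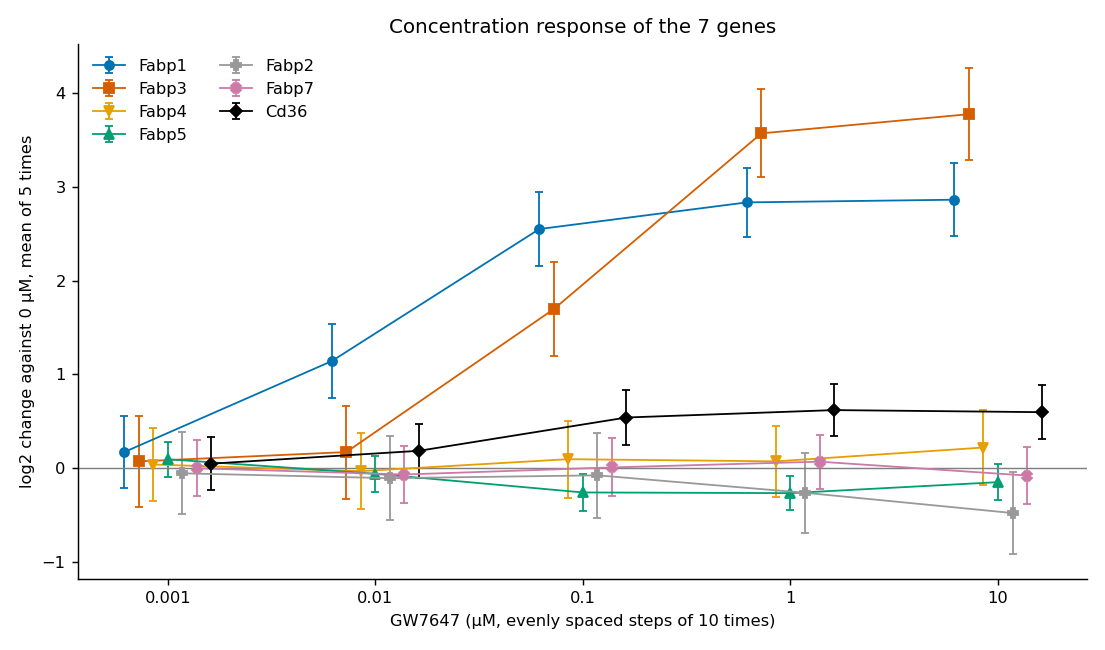
Log2 change against 0 µM averaged over the 5 times for each of the 7 genes, by GW7647 concentration in µM on a log axis, with 95% intervals from limma as bars. Fabp1 stands at 1.14 and Fabp3 at 0.17 at 0.01 µM, while at 1 µM Fabp3 (3.57) is above Fabp1 (2.83).

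The steps were also tested at 24 and 72 h alone. At 24 h, 0 of 7 members were called from 0.001 to 0.01 µM (background 0.0113%, with 1 member at an unadjusted p under 0.05), 2 of 7 from 0.01 to 0.1 µM (1.65%), and 0 of 7 from 0.1 to 1 µM (0%, 1 unadjusted) and from 1 to 10 µM (0%, 0 unadjusted). The 2 called were Fabp3, with 3.47 (adjusted p = 3.99e-06, limma), and Fabp1, with 1.67 (0.0163). The Fabp1 step was not called without Rs628 (0.19), Rs631 (0.284) or Rs632 (0.245). The Fabp3 step from 0.1 to 1 µM was 2.01 (adjusted p = 0.203), called with rats as a block (2.04, 0.0181). At 72 h, 0 of 7 were called from 0.001 to 0.01 µM (0.102%, 1 unadjusted) and from 0.01 to 0.1 µM (0.973%, 2 unadjusted), 1 of 7 from 0.1 to 1 µM (1.47%) and 0 of 7 from 1 to 10 µM (0%, 0 unadjusted). The 1 called was Fabp3, whose step was 4.09 (SE 0.53, adjusted p = 1.82e-07), or 4.73 without Rs632 and 3.06 without the arrays at repeated plate positions. With the rat as a block, Fabp1 was called at 72 h in both lower steps (1.59, adjusted p = 7.43e-05, and 1.68, adjusted p = 1.65e-05) and at 24 h from 0.001 to 0.01 µM (1.37, 0.00309), and Fabp3 at 72 h from 0.01 to 0.1 µM (1.84, 0.00551).

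Time in culture without agent moved none of the members past the threshold. The calls were 0 of 7 from 2 to 6 h (background 1.5%), from 6 to 12 h (0.724%), from 12 to 24 h (0.859%), from 24 to 72 h (0%) and from 2 to 72 h (3.4%), and 0 members reached an unadjusted p under 0.05 in any of them. From 2 to 72 h the difference was -0.31 for Fabp1, with a 95% interval from -1.15 to 0.53, and -0.28 for Cd36, from -0.91 to 0.34. Without agent, intervals this wide leave room for changes of more than 1 log2 unit in Fabp1.

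The growth of the response with time was tested as the change at 1 µM at a later time minus that at an earlier one. From 2 to 72 h 2 of 7 members were called (background 8.66%): the change of Fabp1 grew by 3.27 (SE 0.60, adjusted p = 5.62e-05, limma) and that of Fabp3 by 6.00 (SE 0.75, adjusted p = 9.47e-09). With values under 5 set to 5 the latter was 4.89, and 6.597 without Rs631. From 6 to 24 h Fabp3 alone was called (1 of 7, background 1.7%), with 4.15 (SE 0.73, adjusted p = 0.000187), and without Rs632 it was 3.87 with an adjusted p of 0.0602. The value for Fabp1 was 1.18 there (adjusted p = 0.323), and it was called with rats as a block (1.21, 0.0275), as was Fabp5 with -0.75 (0.0423). Cd36 was called with the block from 2 to 72 h (0.90, adjusted p = 0.00392) and uncalled as fitted (1.03, 0.149). From 2 to 6 h 0 of 7 were called (0%, 1 unadjusted) and from 24 to 72 h 0 of 7 (0.0226%, 0 unadjusted).

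Other genes that bind, take up or activate fatty acids were read from a list of 34, of which 29 had a probe set and 20 were tested. Averaged over the times at 1 µM, 10 of the 20 rose and 2 fell. Over all 8843 genes tested 35.4% were called, 1037 as rises and 2091 as falls. The median change of the 20 was 0.23 against -0.07 over all genes tested. The rises with the lowest p were in the acyl-CoA synthetases, which trap a fatty acid as its CoA ester. Acsl1 rose by 1.63 (SE 0.08, adjusted p = 1.53e-29, limma), Acsl3 by 1.403 (1.65e-13) and Acsl5 by 0.45 (2.2e-13). Among the binding proteins Dbi, the acyl-CoA binding protein, rose by 0.28 (1.78e-11). Of the uptake genes Vldlr, a lipoprotein receptor, rose by 1.01 (7.76e-11) and Slc27a2, a transport protein with synthetase activity, by 0.35 (6.69e-10). The 2 that fell, named after their values were seen, were Cav1, a coat protein of caveolae (-1.86, adjusted p = 0.000132), and Acsl4 (-0.26, 0.000314). By group, 3 of 4 tested binding genes rose, 2 of 8 uptake genes rose and 1 fell, and 5 of 8 activation genes rose and 1 fell. The called share of the uptake genes was close to that over all genes. At 72 h and 1 µM 11 of the 20 rose and 2 fell, beside 26.8% called over all genes, 998 as rises and 1375 as falls.

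The probe sets of the receptors themselves read low. How well each reports its gene was not tested, so the readings neither give the amount of a receptor nor rank the receptors. Ppara exceeded the floor on 21 arrays, Ppard on 27 and Pparg on 70, and Rxra on none, so that it was not tested. Ppara was 0.63 higher at 1 µM than at 0 µM at 72 h (adjusted p = 0.0127, limma), with a highest array of 6.04. Ppard and Pparg did not pass at 1 µM at any time or averaged.

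Genes of the most similar pattern were taken as the 5 tested genes with the highest Pearson r over the 30 group means, which are all drawn from the same arrays. For Fabp1 they were Acaa2 (0.995), Hacl1, Ech1, Acsl1 and Aig1, the last with 0.983. Acaa2 is a thiolase of mitochondrial fatty acid oxidation, and Ech1 handles double bonds of fatty acids. For Fabp3 they were Pkhd1l1 (0.983), Aqp3, Abhd1, Dgat1 and Cacna2d3 (0.973). Aqp3 is a channel for water and glycerol and Dgat1 makes triglycerides. Like Fabp3, Aqp3 had a lowest group mean under the floor (2.99) and rose to 9.97. For Cd36 they were Adipor2 (0.971), Pgrmc2, Lonp2, Etfdh and Acat1 (0.947). Among the members, r was 0.923 for Fabp1 with Cd36, 0.872 for Fabp1 with Fabp3 and 0.843 for Fabp3 with Cd36.

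For Fabp5 the nearest were Anxa7 (0.951), S100a16, Capzb, Avpi1 and Pigx (0.941), whose changes at 1 µM averaged over the times ran from -0.37 to -0.20. The remaining members had looser neighbours. They were Mindy3 (0.819), Mst1, Pdzk1, Car14 and Pcyt2 for Fabp7, Ffar2 (0.910), Defb24, Pclo, Ivl and Tsc1 for Fabp4, and Ephb4 (0.828), Smad7, Psen2, Tmem268 and Inpp5f for Fabp2. Values under the floor make up most of the last 2 patterns.

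Markers of the tissues after which the forms are named were set beside the members. Of 8 fat-cell markers with a probe set, Adipoq, Plin1 and Lep were under the floor on all arrays and 4 had a group mean above it, among them Cidea, with group means from 10.41 to 12.39. The summed level of the list, as log2, ran from 11.15 to 11.64 at 0 µM and from 12.60 to 12.69 at 1 µM at 72 h. It is a sum of linear intensities and was carried by Cidea and Cidec (group means of Cidec from 10.25 to 10.94). Of 7 heart and muscle markers Tnni3, Mb and Ckm were under the floor on all arrays and 3 had a group mean above it. One of these, Cpt1b, the muscle form of the carnitine shuttle enzyme, ran from 6.09 to 10.72. The summed level of the heart and muscle list ran from 7.01 to 8.02 at 0 µM and from 10.41 to 10.90 at 1 µM at 72 h. At 1 µM that sum was carried by Cpt1b. The other markers with a group mean above the floor were Myh6, above it on 66 arrays with group means up to 6.13, and Tnnt2, on 40 arrays with group means up to 5.71.

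Of 8 macrophage markers 6 were under the floor on all arrays, and the summed level, carried by Cd14, ran from 8.97 to 9.70 at 0 µM and from 9.79 to 10.28 at 1 µM at 72 h. Endothelial cells of many tissues are known for Fabp4 and Cd36, and all 6 of their markers were under the floor on all arrays. Of 5 intestinal markers Alpi and Cdx2 were under it on all arrays. Apoa4 was above it on all 100, with group means from 11.20 to 11.91, and Vil1 on 82. Of 3 neural and glial markers Gfap was under it on all arrays, and Mbp was above it on 22. Of 7 stellate-cell markers 3 were under it on all arrays and 3 had a group mean above it. These were Col3a1 (above the floor on 99 arrays), Acta2 (97) and Rgs5 (19). Of 6 bile-duct markers 2 were under it on all arrays and 4 had a group mean above it. These were Epcam (100 arrays, group means from 9.66 to 10.75), Krt19 (36), Spp1 (34) and Krt7 (23). The bile-duct sum ran from 9.86 to 11.32 at 0 µM and from 9.69 to 10.35 at 1 µM at 72 h. The part of these markers in the changes of the members was not tested.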

How the data were processed

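The authors deposited log2 intensities of 31139 probe sets for 100 arrays, 1 per culture. Per the submitters' processing notes GCRMA and Partek were used, with no version or role given. Per the labels' protocols, total RNA was treated with DNase and amplified with a biotin 3′ IVT kit. Probe sets with 1 symbol (19069) were kept, 1 per gene. Genes above log2 5 in at least 3 arrays were fitted in limma 3.58.1 (R 4.3.3) as 30 group means with 70 residual degrees of freedom, and p-values were adjusted by Benjamini-Hochberg over 8843 genes in each of 51 comparisons. Differences between genes were tested by permutation in Python 3.11.15. Within a group the arrays came from separate rats, 4 in all, and the spread within groups was pooled over the 30 groups. That pool holds many arrays of the same 4 rats. The 70 degrees of freedom are therefore not independent animals, also in the tests at single times. Averages over times, differences between times and the permutation tests count several arrays of a rat as separate. Their p-values therefore measure the spread between these arrays, not between animals. Same-numbered samples come from 1 animal, and 95 of 100 arrays lay nearest to an array of their own rat; the fit with the rat as a block was an alternative. Array depth has no count, so the number of arrays limits precision. The named genes are all members, up to 6 called genes of the fatty acid list by p, the 5 most similar genes per member, and 4 receptors. Members and lists were chosen with earlier results of these data known. The scripts were tested on simulated data.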

Additional observations from a re-analysis of the deposited data

Results flagged for a closer look

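In 84 groups of 4 arrays of a member, 2 held an array far from the other 3, where chance would give about 4.2 (1 in 20). Fabp1 at 0.001 µM and 24 h read 10.84 in Rs627, and its nearest neighbour read 9.32. That array carries a code the labels give more than once, read here as a plate position. Fabp3 at 10 µM and 2 h read 4.89 in Rs627 and 4.29 in the next array, all under the floor of 5.

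The response to 1 µM differed between times in 3 cases by a test of the difference itself in limma. For Fabp3 the change at 24 h exceeded that at 6 h by 4.15 (adjusted p = 0.000187), and the change at 72 h exceeded that at 2 h by 6.00 (adjusted p = 9.47e-09). For Fabp1 the change at 72 h exceeded that at 2 h by 3.27 (adjusted p = 5.62e-05).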

How the results depend on the processing

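Of 357 results of single members, 48 passed the threshold. Of these, 33 kept their call in every other setting that gave a value (16 to 18 per result), 15 lost it in at least 1, and 0 changed sign. Of the 309 that did not pass, 33 passed in at least 1 setting. The rat as a block (replicate block) added 24 calls and took away 0. It also raised the share of all genes called, so more calls with the block were not particular to the members. At 72 h that share went from 8.82% to 25.3% for 0.1 µM and from 26.8% to 40.3% for 1 µM. Fitted also without the 0 µM arrays at 12 h that went against their labels, a setting chosen after seeing the data, the block added 28 and took away 0; the lone control array left there is assumed to vary like the other groups. Leaving out Rs631 took away 10, Rs628 and Rs632 8 each and Rs627 2, with fewer arrays in each fit.

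The number of members past the threshold for 1 against 0 µM at 6 h was 1 as reported (2.04% of all genes called), 3 with the replicate block (4.7%) and 2 without the arrays of low signal (2.51%). With the block and without the doubted 12 h arrays it was 3 at 6 h (5.21%), 1 at 2 h (0.973%) and 2 for 0.01 µM averaged over the times (1.67%). Leaving out 1 rat at a time, it ran from 0 to 1 at 2 h (0.113% to 0.249%), from 1 to 2 at 6 h (1.18% to 1.58%), from 2 to 3 at 24 h (9.8% to 38.1%) and from 2 to 4 at 72 h (17.2% to 24.7%), and from 0 to 1 for 0.01 µM averaged over the times (0.271% to 1.22%). The difference in change between Fabp3 and Fabp1 was -0.12 with values under 5 set to 5, 0.72 with quantile normalization (adjusted p = 0.0553) and 0.72 with rats paired (adjusted p = 0.144), and ran from 0.31 to 1.19 without 1 rat. Setting low values to 5 shrinks the change of Fabp3 by construction; the causes of the others were not tested.

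With arrays centred on their median, the order of the 30 group means correlated with the reported order at a Spearman rho from 0.834 (Fabp7) to 0.994 (Fabp1). The highest group moved for Fabp1, Fabp5 and Cd36 and the lowest for Fabp2. The next highest probe set was not run, because each member has 1 single-symbol probe set. Fabp2, Fabp4 and untreated Fabp3 lie near or under the floor, which limits what their differences can show.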

Other observations

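The rats differed in how far Fabp3 rose. Over the times measured, its mean at 1 µM was 9.38 in Rs627 (4 arrays, none at 2 h), 8.18 in Rs628, 6.33 in Rs631 and 7.27 in Rs632 (5 arrays each). The 2 h arrays, from 4.08 to 4.37 and so under the floor, lower every mean but that of Rs627. At 72 h alone the values at 1 µM were 10.81, 10.44, 8.08 and 10.22 in the same order. Without agent the means of the 4 rats over the times measured lay between 3.88 and 4.01. Cd36 was lowest in Rs631 at 1 µM (12.00, against 12.34 to 12.60 in the others) and already without agent (11.06, against 11.65 to 12.07). For Fabp2 at 1 µM, Rs627 (5.30) and Rs628 (4.89) lay above Rs631 (3.87) and Rs632 (3.72). These differences between animals were not tested.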
